A study of Mus musculus with 52 samples.

Results

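Burst-forming unit-erythroid (BFU-E) cells are early progenitors committed to the red cell lineage. Here 13 mouse BFU-E founders, each having completed a single division with 100 nM dexamethasone, were split by Tsc22d3, a glucocorticoid-induced gene also known as Gilz. A pair of daughter cells was called responding when both held at least 10 CPM of Tsc22d3, where CPM is a gene's count scaled to its library's total, and it belonged to the other set when at least 1 daughter held less. The rule gave 6 responding pairs (12 cells) and 7 other pairs (14 cells), out of 13 dexamethasone pairs and of 26 pairs (52 cells) in the whole series. The sets were chosen by Tsc22d3 itself, so its values are given as a description, with no test.

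The responding and the other founders shared every labelled condition. Their source was C57/Bl6J fetal liver of embryonic day 14.5. Antibodies to mature lineages, to Sca-1, CD16/32, CD41 and Ter119 removed unwanted cells, and the rest were sorted on Kit, CD71 and CD24. Each founder was kept alone in a well with dexamethasone, and wells with a single division after 16 hours gave 2 daughters, which were sequenced separately. The 13 untreated pairs had the same source and culture time without dexamethasone. Untreated values below are from the 10 of these pairs that held at least 100000 counts in both libraries, unless another number is given. No label names an animal. The p-values therefore rest on the spread between founders in separate wells, some of which could stem from the same embryo.

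Dexamethasone is a synthetic glucocorticoid. It binds the glucocorticoid receptor, encoded by Nr3c1, which leaves a complex with Hsp90 chaperones, enters the nucleus and binds DNA elements built from a short motif and its reverse complement. Tsc22d3, Fkbp5 (a co-chaperone that lowers the affinity of the receptor for hormone) and Per1 (a repressor of the circadian clock) are direct targets of the receptor in many cell types. In BFU-E cells glucocorticoids are known to favour self-renewal and to delay differentiation.

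A promoter window of Tsc22d3 is shown because this gene set the rule. RefSeq gave 3 windows of 300 bases for it (GRCm38.p6, minus strand), each searched for the receptor's motif TGTTCT and its reverse complement AGAACA. The window below was the only 1 of the 3 with a match, which is in capitals and begins at position -185 relative to the annotated start.
Tsc22d3, chrX:140600473-140600772: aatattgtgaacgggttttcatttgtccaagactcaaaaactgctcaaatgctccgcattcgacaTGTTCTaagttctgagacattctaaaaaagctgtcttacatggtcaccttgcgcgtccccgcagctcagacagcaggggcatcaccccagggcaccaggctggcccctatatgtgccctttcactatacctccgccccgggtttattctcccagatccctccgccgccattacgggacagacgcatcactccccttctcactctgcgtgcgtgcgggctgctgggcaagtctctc
The Fkbp5 window and the 2 Per1 windows held neither form. Of 32851 mouse promoter windows 19% held either form, and 3 held AGAACA and TGTTCT with 3 bases between them. A match describes the letters of the window and not a bound site.

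Some pairs stood apart from the erythroid label. Mpo, the myeloperoxidase of granulocyte precursors, exceeded Gata1, the master transcription factor of erythroid cells, in the summed counts of 1 of 6 responding pairs (pair 10), 3 of 7 other pairs (pairs 6, 7 and 12) and 2 of 10 untreated pairs. The 4 dexamethasone pairs are called Mpo-rich below, a name that refers to Mpo above Gata1 only. Pair 12 was unlike pairs 6, 7 and 10 in other genes. Its summed Prtn3, a granulocyte and monocyte marker, was 2.09 CPM, against 1292, 1294 and 1167 CPM in those pairs. The erythroid gene Klf1 was 1567 CPM in pair 12, against 1.39, 1.39 and 62.3 CPM. Values without the Mpo-rich pairs leave out pair 12 too, and keep pair 9, with Mpo at 522 and Gata1 at 532 CPM. Dexamethasone libraries held 210383 to 4176347 counts, with a median of 2577701, and the smallest was cell 1 of other pair 12. On the library plate, 5 responding and 3 other pairs stood in columns 3 and 4, and 1 responding and 4 other pairs stood in columns 6 and 7. Several results are given below also without the Mpo-rich pairs, within these columns or with the column set as a covariate.

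Tsc22d3 (chrX:140539528-140600659, minus strand) was on in all responding cells by construction, at levels that still varied between sisters. In responding pairs 2, 3 and 4 the daughters held 103 and 119, 58.3 and 17.2, and 81.2 and 77.9 CPM. In responding pairs 5, 8 and 10 they held 116 and 49.1, 230 and 70.0, and 146 and 26 CPM. The sisters of pairs 2 and 4 were nearly equal, whereas those of pairs 3, 5, 8 and 10 differed clearly. The lowest value inside the rule was 17.2 CPM.

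The other set was mixed for Tsc22d3 and not uniformly silent. In 4 of its 7 pairs a single daughter was over the threshold. That daughter held 193 CPM in pair 1, 124 CPM in pair 6, 266 CPM in pair 11 and 119 CPM in pair 13, and its sister held 0.631, 2.36, 0 and 0 CPM in the same order of pairs. These 4 cells lay within or above the range of the responding cells. These 4 pairs thus differ from the responding set in whether the transcript was detected above the threshold in both libraries. Whether the sister lacked the transcript or its library missed it was not tested. In the remaining 3 pairs no daughter reached the threshold. Pair 12 held 9.51 and 0 CPM, where the higher value is 2 reads in the smallest library and lies just outside the rule, and pairs 7 and 9 held 1 and 0 reads in all. Among untreated pairs 0 of 13 met the rule, although cell 1 of pair 5 held 221 CPM and cell 1 of pair 10 held 124 CPM. Cells at or above 10 CPM were thus 12 of 12 in responding pairs, 4 of 14 in other pairs and 2 of 20 in untreated pairs.

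**Figure D1:**
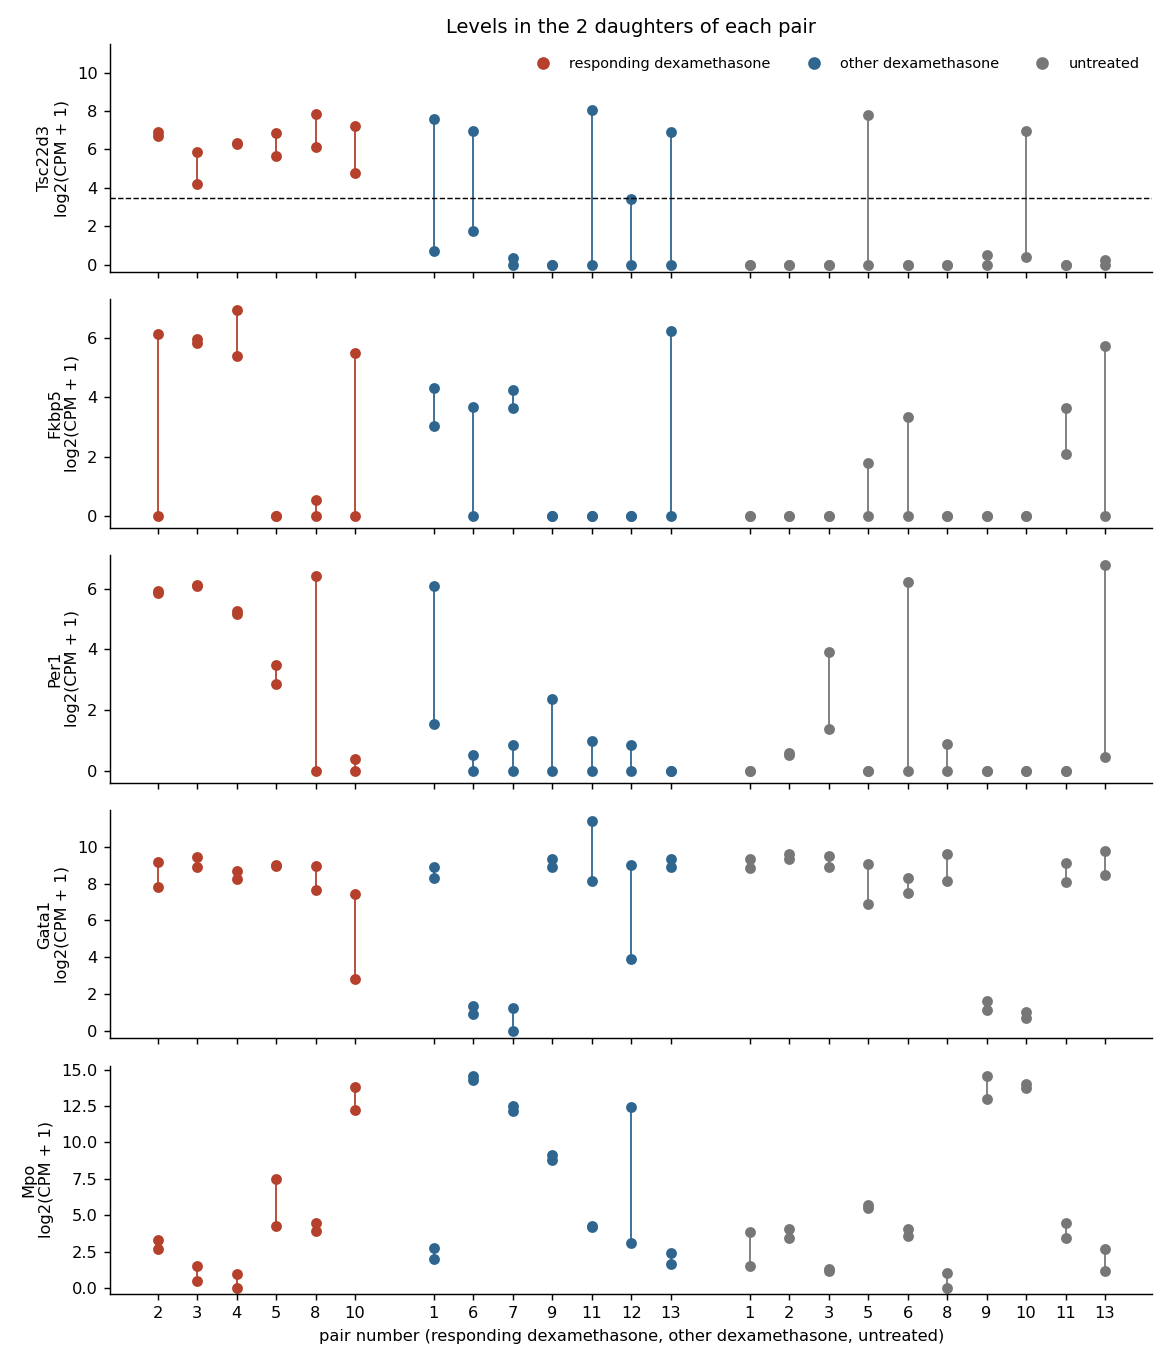
Level of Tsc22d3, Fkbp5, Per1, Gata1 and Mpo, as log2(CPM + 1), in the 2 daughters of each pair, joined by a line. Responding pairs are on the left, other dexamethasone pairs in the middle and the 10 deep untreated pairs on the right, and the dashed line marks 10 CPM of Tsc22d3. Sisters of other pairs 1, 6, 11 and 13 lie far apart for Tsc22d3. Among dexamethasone pairs Mpo is high in both daughters of responding pair 10 and other pairs 6 and 7, and in cell 1 of other pair 12.

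By Gata1 and Mpo, 5 of 6 responding pairs and 4 of 7 other pairs had more Gata1 than Mpo. Gata1 (chrX:7959260-7978071, minus strand) was 445, 580, 352, 501 and 348 CPM in the summed responding pairs 2, 3, 4, 5 and 8, and 95.5 CPM in responding pair 10. In the other set it was 393, 532, 1756, 440 and 569 CPM in pairs 1, 9, 11, 12 and 13, and 1.11 and 0.992 CPM in pairs 6 and 7. The sets overlapped, and only the other set held pairs with almost no Gata1.

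Mpo (chr11:87793581-87804413, plus strand) gave the reverse picture. It was 6.73, 1.19, 0.421, 116 and 17.3 CPM in responding pairs 2, 3, 4, 5 and 8, and 9999 CPM in responding pair 10. In the other set it was 4.32, 522, 17.3 and 3.14 CPM in pairs 1, 9, 11 and 13, and 22182, 5451 and 833 CPM in pairs 6, 7 and 12. Each set thus held pairs of both kinds. Pair 12 was split between its daughters, with Gata1 at 14.3 and 513 CPM and Mpo at 5633 and 7.35 CPM, and in responding pair 10 Gata1 was 6.10 and 176 CPM beside Mpo of 4843 and 14623 CPM. Pair 9 had both genes in both daughters, with Gata1 at 477 and 648 CPM and Mpo at 556 and 451 CPM.

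Neither lineage gene separated the sets in a two-sided exact permutation test over the 13 pairs, which has 1716 assignments and a smallest possible p of 0.000583. The mean level of Gata1, as log2(CPM + 1) averaged over daughters, was 8.09 ± 1.48 in responding pairs, 6.41 ± 3.93 in other pairs and 7.25 ± 3.27 in untreated pairs (SD, n = 6, 7 and 10, exact p = 0.367 for responding against other). Mpo averaged 4.59 ± 4.59 in responding pairs, 7.43 ± 4.84 in other pairs and 5.11 ± 4.83 in untreated pairs (SD, n = 6, 7 and 10, exact p = 0.293 for responding against other). Adjusted over the 8 single values tested, both p-values were 0.419. On summed counts the edgeR log2 fold change of Gata1 was -0.63 ± 1.03 (SE, adjusted p = 1), opposite in sign to the difference of mean levels. A p of this size does not show that the sets have the same lineage makeup. Within plate columns 3 and 4, with 5 responding and 3 other pairs, Gata1 differed by 5.24 and Mpo by -6.80 (exact p = 0.0714 for each), wider apart than over all pairs. Within plate columns 6 and 7, where the only responding pair is pair 10, both differences had the opposite sign (Gata1 -3.48, Mpo 7.30).

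The 19 granulocyte and monocyte markers summed to 343 to 16260 CPM in responding pairs and 107 to 28740 CPM in other pairs, and the 17 megakaryocyte markers to 56.4 to 1608 and 137 to 1176 CPM. The 43 measured late erythroid markers summed to 3142 to 48432 CPM in responding pairs and 1121 to 23584 CPM in other pairs. The top of the responding range came from Kel, the Kell blood group antigen, at 45504 CPM in pair 10. For stem cell markers 5 of 9 were at 0 in every responding pair and 9 of 9 in every other pair. Their part in the results below was not tested, except where values without the Mpo-rich pairs are given.

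Per1 (chr11:69095217-69109960, plus strand) had a higher mean in the responding pairs, which did not pass after adjustment over the 8 values. Its daughters held 58.9 and 56.5 CPM in responding pair 2, 67.0 and 69.1 in pair 3, 34.8 and 37.6 in pair 4, 6.28 and 10.1 in pair 5, 0 and 84.7 in pair 8, and 0.305 and 0 in pair 10. In the other set a single cell exceeded 10 CPM, the Tsc22d3-positive daughter of pair 1 at 67.1 CPM, and its sister held 1.89 CPM. The 12 remaining cells of the other set held at most 4.2 CPM. Sisters were almost equal in responding pairs 2, 3 and 4, and the sets overlapped through responding pair 10 and other pair 1.

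The Per1 level averaged 3.96 ± 2.25 in responding pairs, 0.94 ± 1.32 in other pairs and 1.03 ± 1.47 in untreated pairs on the log2(CPM + 1) scale (SD, n = 6, 7 and 10). The difference of 3.02 had an exact permutation p of 0.0163, and 0.0637 after adjustment over the 8 values, so it did not pass at 0.05. Without the 4 Mpo-rich pairs the difference was 3.35 (exact p = 0.0476). Within plate columns 3 and 4 it was 3.22 (5 against 3 pairs, exact p = 0.0714), and within columns 6 and 7, with 1 responding pair, -0.33. Across all genes, the edgeR quasi-likelihood fit on summed counts gave Per1 a log2 fold change of 2.58 ± 1.57 (SE) with an adjusted p of 1.

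Fkbp5 (chr17:28399094-28517527, minus strand) was present and absent in both sets. Its daughters held 69.6 and 0 CPM in responding pair 2, 56.8 and 61.5 in pair 3, 41.0 and 124 in pair 4, 0 and 0 in pair 5, 0 and 0.432 in pair 8, and 0 and 44.0 in pair 10. In the other set they held 7.25 and 19.0 CPM in pair 1, 0 and 11.6 in pair 6, 18.0 and 11.4 in pair 7 and 0 and 74.3 in pair 13, and 0 in both daughters of pairs 9, 11 and 12. Responding pairs 5 and 8 thus had next to no Fkbp5, and other pair 7 had it in both daughters without Tsc22d3. The level averaged 3.03 ± 2.65 in responding pairs, 1.80 ± 1.81 in other pairs and 0.83 ± 1.21 in untreated pairs (SD, n = 6, 7 and 10, exact permutation p = 0.347 and 0.419 adjusted for responding against other). The difference of 1.23 was -0.07 within plate columns 3 and 4, 1.97 within columns 6 and 7, and 1.38 without the Mpo-rich pairs. It was 0.14 at a threshold of 20 CPM, 0.60 without pair 4 and 0.66 without pair 3.

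In the 4 pairs with Tsc22d3 in a single daughter, Fkbp5 was higher in that daughter in pairs 1, 6 and 13. Per1 was clearly higher there in pair 1 alone, and Klf9 went both ways. In pair 1 both Fkbp5 (19.0 against 7.25 CPM) and Per1 (67.1 against 1.89 CPM) were higher in the daughter with Tsc22d3, and in pairs 6 and 13 Fkbp5 was read only in that daughter. Per1 was 0.431 CPM (1 read) in that daughter of pair 6 and 0.956 CPM (2 reads) in that of pair 11. It was 0 in both sisters, and had no read in pair 13. In pair 11 neither daughter had a read of Fkbp5, and Klf9, a Krüppel-like factor induced by glucocorticoids, was 197 CPM in the daughter with Tsc22d3 and 0 in its sister. In pairs 1 and 13 Klf9 went the other way, with 0.302 and 0 CPM in the daughter with Tsc22d3 against 37.2 and 53.6 CPM in its sister.

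The wider list of known glucocorticoid targets was detected more broadly in responding pairs, as were genes in general. Of 37 targets without Tsc22d3, responding pairs 2, 3, 4, 5, 8 and 10 had 14, 13, 11, 12, 10 and 17 at 10 CPM or more in the summed pair, and other pairs 1, 6, 7, 9, 11, 12 and 13 had 11, 8, 8, 8, 5, 4 and 8. Untreated pairs had 4 to 15. Of all 6990 genes tested, 74.2% to 83.3% reached 10 CPM in a responding pair and 37.8% to 72.0% in an other pair. The target counts thus stand beside a difference in the same direction over the genes tested. The 37 targets were not filtered on low counts and the 6990 genes were, so the sizes of these differences cannot be compared.

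Among the targets 14 passed the filter on low counts, and 0 of these 14 were called by edgeR, DESeq2 or limma at an adjusted p under 0.05, or reached an unadjusted p under 0.05 in edgeR. Their log2 fold changes were positive for 11 and negative for 3, with a median of 0.66, beside a median of -0.05 and 47.3% positive over all genes tested. The lean varied with the fit. The median was 0.08 at a threshold of 20 CPM (10 of 15 positive), 0.28 without pair 7 (8 of 13), 0.38 without pair 2 (9 of 14) and 0.60 without the Mpo-rich pairs (11 of 14). In the same order 48.2%, 49.9%, 47.5% and 49.9% of all genes were positive. With the log2 total count or genes detected as a covariate in edgeR 8 of 14 were positive, with a median of 0.47 in each. Over all genes 44.7% and 37.3% were positive in these fits. With the plate column set 12 of 14 were positive with a median of 1.16, beside 52.2% over all genes. In limma 14 of 14 were positive (median 1.57), beside 86.6% and a median of 1.01 over all genes. With genes detected as a covariate in limma 9 of 14 were (median 0.95), beside 51.2% and a median of 0.04 over all genes. Sesn1, a stress-induced regulator of nutrient signalling, had 3.08 ± 1.91 and Cry1, a clock repressor, 1.63 ± 1.70 (log2 fold change and SE, adjusted p = 1 for both with edgeR). Mt2, a metallothionein, was 166, 141, 330, 167, 4.98 and 34.8 CPM in responding pairs 2, 3, 4, 5, 8 and 10. In other pairs 1, 6, 7, 9, 11, 12 and 13 it was 51.7, 0, 0.198, 0.542, 0, 150 and 149 CPM, and the sets overlapped. The clock gene Per2, named after its values were seen, lay between 0.199 and 57.3 CPM in responding pairs. In other pairs it lay between 0 and 0.154 CPM, and it was too low to pass the filter. The nearest ends of these ranges, 0.199 and 0.154 CPM, rest on so few reads that the gap between them carries no weight. Zbtb16, Sgk1 and Pdk4, targets in other tissues, had medians of at most 0.097 CPM in both sets.

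The receptor itself was read in all 6 responding pairs and in 5 of 7 other pairs, and the levels overlapped. Nr3c1 was 139, 32.8, 162, 46.9, 106 and 36.6 CPM in responding pairs 2, 3, 4, 5, 8 and 10. In other pairs it was 77.0 CPM in pair 1 and 57.4 CPM in pair 9, and at most 4.76 CPM in the remaining 5. The untreated median was 34.5 CPM, with a range of 0 to 247 CPM. The edgeR log2 fold change was 2.04 ± 1.51 (SE, adjusted p = 1). The receptor with its chaperones and cofactors gave 12 tested genes, 6 with a positive and 6 with a negative change, and 0 called by edgeR, DESeq2 or limma or under an unadjusted p of 0.05 in edgeR. Hsp90aa1, the inducible Hsp90 isoform, had a median of 1842 CPM in responding pairs and 941 CPM in other pairs (log2 fold change 0.48 ± 0.33, adjusted p = 1).

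Responding cells held more kinds of transcript. The number of genes with at least 1 count, averaged over the daughters, was 8460 ± 598 in responding pairs, 6662 ± 1043 in other pairs and 7635 ± 753 in untreated pairs (SD, n = 6, 7 and 10). Responding against other gave an exact permutation p of 0.0035, and 0.028 after adjustment, the only 1 of the 8 single values to pass at 0.05. With every library thinned to 210383 counts the values were 6187 ± 518 in responding pairs, 4490 ± 653 in other pairs and 5461 ± 1037 in untreated pairs. The thinned ranges of 5384 to 6791 genes in responding pairs and 3478 to 5078 genes in other pairs did not overlap. The exact p of 0.000583 is the smallest the test can give.

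The rule asks for a transcript in both cells, so the number of genes detected is not independent of it. Without the Mpo-rich pairs the unthinned difference was 1448 genes in place of 1798 (exact p = 0.0317), and within plate columns 3 and 4 it was 1079 (5 against 3 pairs, exact p = 0.0536). The total count did not separate the sets at 0.05, at 22.48 ± 0.27 on the log2 scale in responding pairs and 22.01 ± 0.78 in other pairs (SD, n = 6 and 7, exact permutation p = 0.213). Against the 3 other pairs with no daughter over the threshold the difference was 0.97 in place of 0.47 (exact permutation p = 0.0357). Mitochondrially encoded genes took 1.93% ± 0.64 of counts in responding pairs and 1.83% ± 0.58 in other pairs (SD, n = 6 and 7, exact permutation p = 0.764). Without the Mpo-rich pairs that difference was 0.57 percentage points (exact p = 0.0397), but it had the opposite sign within columns 3 and 4 (-0.187) and within columns 6 and 7 (-0.727).

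The similarity of sisters was on average larger in the responding set, short of the threshold after adjustment. Pearson's r between daughters across 8080 genes was 0.559 ± 0.051 in responding pairs, 0.487 ± 0.046 in other pairs and 0.542 ± 0.047 in untreated pairs (SD, n = 6, 7 and 10). The exact permutation p for responding against other was 0.0239, and 0.0637 after adjustment, which did not pass at 0.05. The genes are not independent replicates, and r depends on how many genes are detected, which also differed. The rule itself selects on agreement of sisters, because pairs with Tsc22d3 in a single daughter fall in the other set. The correlation is therefore not independent of the rule, and Tsc22d3 was not left out of the 8080 genes. Within columns 3 and 4 the difference was 0.092, and within columns 6 and 7 it was -0.0021.

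**Figure D2:**
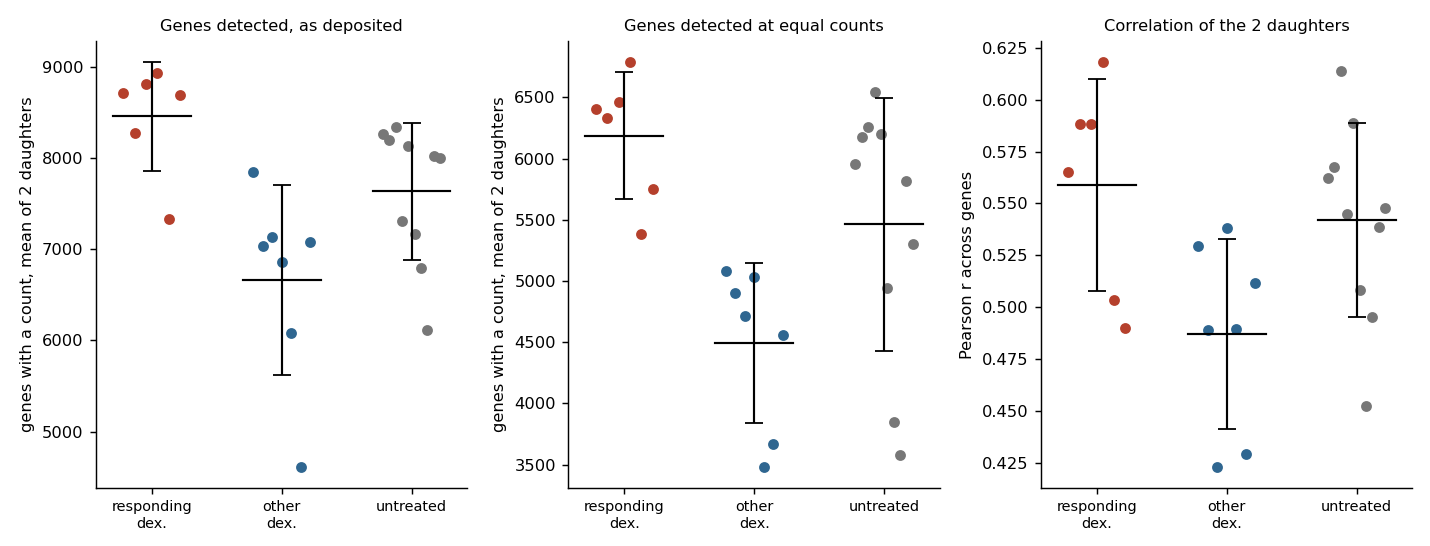
Genes detected per cell as deposited (left) and after thinning to 210383 counts (middle), each averaged over the 2 daughters, and the correlation of sisters across 8080 genes (right). Each point is a pair, the horizontal line the mean and the bar 1 SD, for responding, other and the 10 deep untreated pairs. The thinned values of responding pairs lie at or above 5384 genes and those of other pairs at or below 5078.

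Across the transcriptome, 1 of 6990 genes tested (0.0143%) differed at an adjusted p under 0.05 in edgeR, and 144 at an unadjusted p under 0.05. That gene was S100pbp, which encodes a protein that binds the calcium-binding protein S100P (chr4:129148005-129189727, minus strand). It was 14.2, 41.3, 16.7, 25.0, 11.3 and 12.6 CPM in responding pairs 2, 3, 4, 5, 8 and 10. In other pairs it was 0.154 CPM in pair 1, 0.198 CPM in pair 7 and 0 in the remaining 5, which is 2 reads in all. The sets did not overlap, but 7 of 12 responding cells reached 10 CPM, against 0 of 14 other cells and 5 of 20 untreated cells. In untreated pairs it ranged up to 36.0 CPM with a median of 0. With 2 reads in the other set it passed the filter on low counts only through the responding pairs, and with a filter of 5 counts in 3 pairs, or with none, 0 genes were called by edgeR (542 and 3040 at an unadjusted p under 0.05).

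The edgeR log2 fold change of S100pbp was 7.83 ± 1.12 (SE, adjusted p = 0.0231), a value that depends on the prior count because the other set holds so few reads. The ratio of summed CPM was 318, with an exact counting interval of 87.8 to 2634 that ignores the spread between pairs. With each pair left out in turn, S100pbp stayed called in 6 of 13 fits, with adjusted p between 0.0205 and 0.0867. It was not called without pair 2, 4, 5, 8, 10, 11 or 12, nor without all 4 Mpo-rich pairs, nor with the number of genes detected as a covariate.

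Other tools called more genes, nearly all of them higher in the responding set. DESeq2 called 31 genes (0.443%), 28 higher and 3 lower, and limma-trend on mean log2(CPM + 1) called 15 (0.215%), all higher. Exactly 8 genes were shared by these 2 tools, and S100pbp alone by all 3 tools. In the limma fit the median log2 difference of all genes was 1.01 and 6056 of 6990 genes were positive, where edgeR gave a median of -0.05 and 3308 positive. With the number of genes detected as a covariate the limma median was 0.04 and 0 genes were called, with 371 at an unadjusted p under 0.05. Without the Mpo-rich pairs limma called 0 genes and 1121 had an unadjusted p under 0.05.

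The genes next to S100pbp by p were near 0 in the other pairs and present in many untreated pairs. Spg20 (chr3:55112108-55137322), which encodes spartin of lipid droplets and endosomes, had 12.4, 24.8, 6.17, 21.3, 44.4 and 4.76 CPM in responding pairs 2, 3, 4, 5, 8 and 10. It had no read in any other pair, and a median of 46.2 CPM in untreated pairs. With 3 reads assumed over the other set, the responding level would be at least 185-fold higher. That bound covers counting error only and ignores the spread between cells and pairs. In each responding pair Spg20 came from a single daughter. Its adjusted p was 0.0537 in edgeR.

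B4galt3, a galactosyltransferase of the Golgi, had 46.8, 76.9, 15.4, 71.2, 32.0 and 73.0 CPM in responding pairs 2, 3, 4, 5, 8 and 10. It stayed between 0 and 0.409 CPM in other pairs, and its untreated median was 47.8 CPM. At least 10 CPM was reached in 10 of 12 responding cells, 0 of 14 other cells and 11 of 20 untreated cells (edgeR adjusted p = 0.0715). Tmem57 had a median of 16.7 CPM in responding pairs, at most 0.463 CPM in other pairs and a median of 52.7 CPM in untreated pairs (edgeR adjusted p = 0.0715). DESeq2 and limma-trend called Spg20, B4galt3 and Tmem57. These genes were named for a small p in the direction of the responding pairs and passed the filter only through them, so their near absence from the other pairs follows from that choice, and no test was made against untreated pairs.

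Ankle1, an endonuclease of the blood lineage, was named by the same choice, and its untreated median was also near 0. Its medians were 44.4 CPM in responding, 0.154 CPM in other and 0.272 CPM in untreated pairs (edgeR adjusted p = 0.135). It still reached 21.0, 40.7 and 61.0 CPM in untreated pairs 3, 6 and 11. Atp2b4, a plasma membrane calcium pump, had medians of 18.9 CPM in responding pairs, 0 in other pairs and 30.2 CPM in untreated pairs. Arhgap21 had 48.5, 0.191 and 21.8 CPM, and Ikbip 23.3, 0 and 0.116 CPM, in responding, other and untreated pairs. Ikbip reached 53.2, 65.2 and 59.8 CPM in untreated pairs 5, 9 and 13. The limit set by the choice of genes holds for Ankle1, Atp2b4, Arhgap21 and Ikbip as well. Mga, a Max partner, and Dhrs13 completed the 10 smallest p-values in this direction, and both overlapped between sets. Of all genes tested 22 (0.315%) were higher in every responding pair than in every other pair, and 2 (0.0286%) were lower.

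Lower in responding pairs, without a call by edgeR, was Chaf1b (chr16:93883901-93906115), a subunit of the chromatin assembly factor that deposits histones behind the replication fork. It had 98.2, 85.5, 73.5, 158, 58.0 and 99.96 CPM in responding pairs 2, 3, 4, 5, 8 and 10, against 261, 306, 353, 222, 251, 391 and 188 CPM in other pairs 1, 6, 7, 9, 11, 12 and 13. The sets did not overlap, and untreated pairs spanned 83.6 to 415 CPM. The log2 fold change was -1.73 ± 0.42 (SE, edgeR adjusted p = 0.78), and DESeq2 called it at an adjusted p of 0.00707.

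Among the remaining genes with the smallest p in this direction were 4 enzymes or enzyme subunits. Uqcrc1, a core subunit of respiratory complex III, had medians of 1359 CPM in responding pairs and 1782 CPM in other pairs. Mdh2, the mitochondrial malate dehydrogenase, had 1449 and 2301 CPM, and Eno1, the glycolytic enolase, 811 and 1398 CPM. Acat2, of acetyl-CoA metabolism, had 186 and 404 CPM in responding and other pairs. Their log2 fold changes lay between -1.65 and -0.79, each set overlapped the other, and the edgeR adjusted p was 1 for each. DESeq2 called Uqcrc1 (log2 fold change -1.09, adjusted p = 0.0486).

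**Figure D3:**
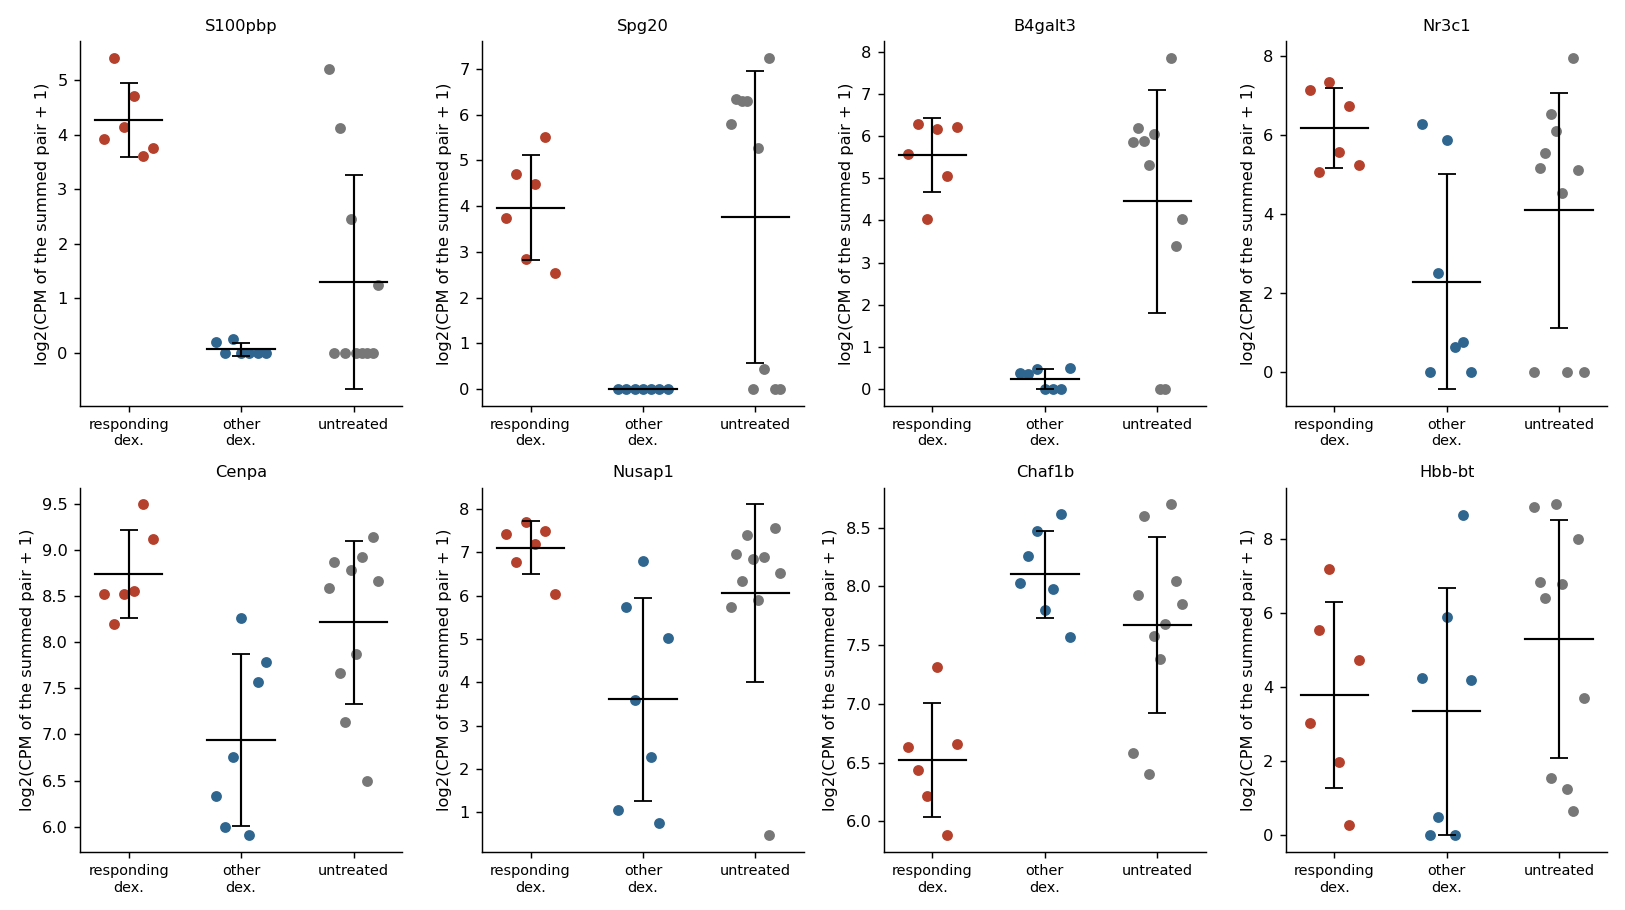
CPM of 8 genes in the summed pair, as log2(CPM + 1), for responding, other and the 10 deep untreated pairs, with each point a pair, the horizontal line the mean and the bar 1 SD. S100pbp, Spg20 and B4galt3 sit at or near 0 in all other pairs, and Chaf1b is lower in all responding pairs than in all other pairs, while Hbb-bt overlaps.

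Cell cycle genes of late and early phases leaned in opposite directions, with 0 called in either list by edgeR or limma and Chaf1b alone called by DESeq2. In each list 2 genes had an unadjusted p under 0.05 in edgeR. Of 52 tested G2 and mitosis genes, 38 had a positive edgeR log2 fold change, with a median of 0.41. Of 42 tested G1/S genes, 12 had a positive change and 30 a negative one, with a median of -0.45, beside 47.3% positive and a median of -0.05 over all genes tested. The 53 G2 and mitosis genes summed to 10129 to 15340 CPM in responding pairs, 3431 to 11679 CPM in other pairs and 6736 to 13523 CPM in untreated pairs. The 42 G1/S genes summed to 6908 to 11357 CPM in responding pairs, 7447 to 14859 CPM in other pairs and 9269 to 18176 CPM in untreated pairs. For both lists the responding and the other ranges overlapped.

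Cenpa, the centromeric histone H3 variant, was 368, 293, 368, 375, 721 and 556 CPM in responding pairs 2, 3, 4, 5, 8 and 10. In other pairs 1, 6, 7, 9, 11, 12 and 13 it was 79.6, 62.9, 107, 305, 59.1, 188 and 219 CPM, so that pair 9 alone exceeded the lowest responding pair. Its log2 fold change was 1.5 ± 0.46 (SE, edgeR adjusted p = 1). Nusap1, a spindle protein, had a median of 157 CPM in responding pairs and 11.1 CPM in other pairs (2.15 ± 1.03), and Tubb4b, a beta tubulin, 977 and 419 CPM (0.84 ± 0.39). On the G1/S side Pcna, the sliding clamp of DNA replication, had medians of 261 CPM in responding pairs and 341 CPM in other pairs (-0.79 ± 0.37). Tyms, the thymidylate synthase, had 188 and 262 CPM (-0.74 ± 0.35), with an edgeR adjusted p of 1 for each of these genes.

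The lean of these lists depended on the fit in part. Without the Mpo-rich pairs 36 of 53 G2 and mitosis genes and 11 of 42 G1/S genes were positive in edgeR, with medians of 0.18 and -0.44. With the plate column set as a covariate 40 of 52 and 12 of 42 were positive, with medians of 0.95 and -0.32. Over all genes these fits gave 49.9% and 52.2% positive. In the limma fit the medians were 2.14 and 0.68 beside 1.01 over all genes, so the G1/S median was positive there and still below that of all genes. With genes detected as a covariate in limma they were 1.60 and -0.66 beside 0.04. Where the rule was applied to the summed pair, the G1/S median was 0.12 beside 0.27 over all genes.

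**Figure D4:**
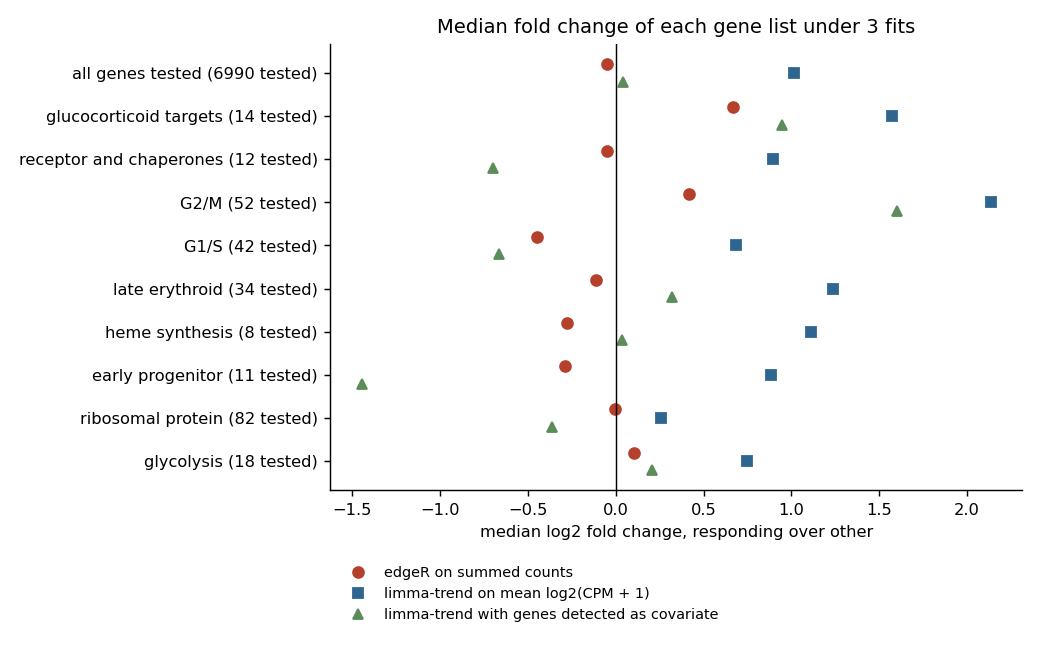
Median log2 fold change, responding over other, of gene lists and of all genes tested under edgeR on summed counts (circles), limma-trend on mean log2(CPM + 1) (squares) and limma-trend with genes detected as a covariate (triangles). The G2/M median lies to the right of that of all genes in each fit and the G1/S median to its left, while the median of all genes itself moves between -0.05, 1.01 and 0.04.

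No late erythroid gene was called by edgeR, DESeq2 or limma. Of 34 tested late erythroid genes, 16 had a positive change and 18 a negative one, with a median of -0.12, and 2 had an unadjusted p under 0.05 in edgeR. With the plate column set as a covariate 27 of 34 were positive with a median of 0.88, beside 52.2% and 0.04 over all genes. Without the Mpo-rich pairs 13 of 36 were positive with a median of -0.36, beside 49.9% over all genes. Klf1, an erythroid transcription factor, had medians of 540 CPM in responding pairs and 631 CPM in other pairs, and Epor, the erythropoietin receptor, 84.2 and 113 CPM. Of 8 tested heme synthesis genes 3 were positive and 5 negative, with 6 positive under the plate covariate, 5 without pair 9 and 2 without the Mpo-rich pairs. Over all genes 47.6% were positive without pair 9. The 4 adult globin genes all had negative changes with a median of -2.11, but their sums ranged over 2.81 to 491 CPM in responding pairs and 17.8 to 9298 CPM in other pairs. Without pair 9 that median was -0.45, and with the plate columns as a covariate it was 1.44. Reads of Hba-a1 and Hba-a2, which are near-identical, cannot be split with certainty.

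No early progenitor gene was called by these tools either. Of 11 tested early progenitor genes 4 were positive and 7 negative, and 0 had an unadjusted p under 0.05 in edgeR. With the plate covariate, and without the Mpo-rich pairs, 6 of 11 were positive, beside 52.2% and 49.9% over all genes. With genes detected as a covariate in edgeR 0 were, beside 37.3% over all genes. Kit, the stem cell factor receptor used in the sort, had medians of 200 CPM in responding pairs and 30.1 CPM in other pairs (1.15 ± 1.00), and Myc 491 and 910 CPM (-0.66 ± 0.48). Runx1, a haematopoietic transcription factor, lay within 48.7 to 59.3 CPM in all responding pairs and between 7.67 and 656 CPM in other pairs. Of 82 ribosomal protein genes 40 were positive in edgeR with TMM scaling, but the split moved with the fit. It was 25 with RLE scaling or DESeq2, 24 without the Mpo-rich pairs, 17 without pair 10, 58 with the plate covariate, and 17 of 84 with the rule on the summed pair. Over all genes 44.1% to 57.7% were positive in these fits. Of 18 glycolysis genes 10 were positive, and 0 genes were called in either list by the 3 tools.

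The genes whose level most resembled that of Tsc22d3 over the 26 dexamethasone libraries did not include Fkbp5, Per1 or Klf9. Among 6873 genes, Pearson's r of log2(CPM + 1) was 0.78 for Uba3, a subunit of the NEDD8-activating enzyme, 0.73 for Mrpl10, a mitochondrial ribosomal protein, and 0.73 for Gtf3c6. S100a10, Tpst2, Cenpt, Tgoln1, Snx1 and Sat1 followed with 0.70 to 0.73. For Per1 r was 0.45, for Fkbp5 0.25, for Klf9 0.10, for Gata1 0.11 and for Mpo -0.25. Sisters and libraries of unequal gene detection share these points, and Tsc22d3 itself had r of 0.40 with the number of genes detected, so the values describe these libraries only.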

How the data were processed

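The deposited tables hold raw, unscaled read counts, with genes in rows and a column for each daughter cell. Per the submitters' processing notes STAR 2.4 and featureCounts were used with GRCm38, and strand and shared reads were handled in a way not given in the sources used here. Overlapping, antisense and near-identical genes may therefore share reads. Reads are not molecules here, since the labels mention no identifiers of molecules, and intervals cover counting error only. Gene positions were taken from GENCODE mouse release M21 by Ensembl identifier, and promoters from RefSeq (GRCm38.p6).

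The pair was the replicate. Counts of both daughters were summed, Tsc22d3 was left out, and genes were kept by filterByExpr (minimum count 10, minimum total 15). The main test was edgeR 4.0.16 (TMM, quasi-likelihood, Benjamini-Hochberg adjusted p under 0.05) in R 4.3.3, checked on simulated data. A standard error is the log2 fold change divided by the square root of F. DESeq2 1.42.0 and limma 3.58.1 were alternatives. The 8 single values used two-sided exact permutation tests over pairs (scipy 1.17.1) on means over daughters, with log2(CPM + 1) for levels. Thinning drew 210383 counts from each library.

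The text names the 10 genes of smallest edgeR p in each direction, leaving out Tsc22d3 and predicted genes, up to 4 genes of each list by p, and a fixed set of genes. From this choice the text gives those with a clear role. The members, lists and rules were chosen with earlier results of these data known. Per2, Zbtb16, Sgk1, Pdk4 and Mt2 are targets named after their values were seen. The alternatives with genes detected as a covariate, and those without Mpo-rich pairs in limma and for depth, detection, mitochondrial share and daughter correlation, were added after seeing the data. A gene among those most like Tsc22d3 is not reported here.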

Additional observations from a re-analysis of the deposited data

Results flagged for a closer look

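Within a set of 6 or 7 pairs, 3 values lay farther from the rest than Dixon's 95% limit allows. Of 18 sets tested, chance flags about 1 in 20. The Per1 level of other pair 1, 3.81 as mean log2(CPM + 1), was the highest of the other set, whose median was 0.43. The Gata1 level of responding pair 10, 5.15 on the same scale, was the lowest of the responding set, whose median was 8.48. The mitochondrially encoded share of responding pair 10, 0.703% of counts, was also the lowest of its set, whose median was 2.07%.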

How the results depend on the processing

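No paired analysis was possible because the 2 sets are different founders under the same treatment, so the pair numbers link no responding pair to an other pair. The count of genes called by edgeR (1) became 31 with DESeq2, 15 with limma-trend, 3 with the rule on the summed pair and 2 with the log2 total count as covariate. It was 0 with a filter of 5 counts in 3 pairs, with no filter, without other pairs that have 1 daughter over the threshold, without the Mpo-rich pairs (edgeR and limma), and with genes detected as covariate (edgeR and limma). Leaving out each pair gave 0 to 16 calls, with 16 without pair 9. Labels of single values used the unadjusted exact permutation p at 0.05. Per1 differed by 1.94 with a threshold of 20 CPM, 3.28 against the other pairs without Tsc22d3, 3.22 within columns 3 and 4 and -0.33 within columns 6 and 7, and by 2.59 to 3.77 with each pair left out. Within columns 3 and 4 Fkbp5 differed by -0.0674, genes detected by 1079, the mitochondrial share by -0.187 and the daughter correlation by 0.0922. Within columns 6 and 7, with 1 responding pair, Gata1 differed by -3.48, Mpo by 7.30, genes detected by 2531, the mitochondrial share by -0.727 and the correlation by -0.0021. Without the Mpo-rich pairs the mitochondrial share differed by 0.570 and the correlation by 0.0555, and against other pairs without Tsc22d3 the log2 total by 0.966. The cause of these changes was not tested. Over 2808 values of 101 named genes, 2545 kept direction and call, 222 changed sign while called in neither fit, 25 became called, 16 lost a call and 0 reversed. Depth limits low genes: 10 CPM is 2 reads in the smallest library.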

Other observations

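Lists not described above gave 0 calls with edgeR, DESeq2 and limma. Cyclins and inhibitors of cyclin-dependent kinases had 6 of 9 tested genes with a positive edgeR log2 fold change, beside 47.3% over all genes. Among them Cdkn1b, the inhibitor p27, was 7.35 to 20.6 CPM in responding pairs and 0 to 7.25 CPM in other pairs. These ranges nearly touch, and 22 of all 6990 genes tested (0.315%) were higher in every responding pair. Ccna2, cyclin A2, had medians of 462 CPM in responding pairs and 121 CPM in other pairs. In edgeR 0 of the 9 had an unadjusted p under 0.05. Targets of p53 were positive for 5 of 8, genes of the Atf4 stress response for 4 of 11 and genes of cholesterol synthesis for 7 of 16, with 0 under an unadjusted p of 0.05 in each. With the plate column set as a covariate these were 7 of 8, 8 of 11 and 12 of 16, beside 52.2% over all genes. Without the Mpo-rich pairs they were 5 of 10, 4 of 11 and 10 of 16, beside 49.9%. Genes of the Bcl2 family and mitochondrial apoptosis were positive for 2 of 8, and for 5 of 8 with the plate covariate. Their lowest p was that of Bnip3l, a mitophagy receptor of maturing red cells, with medians of 47.7 CPM in responding pairs and 75.2 CPM in other pairs (log2 fold change -1.65 ± 0.72, edgeR adjusted p = 1).
Of the 8 tested mitochondrially encoded genes 6 were positive, with a median of 0.19, but 0 of 8 were with the plate column set as a covariate (median -0.48), 1 of 8 with genes detected as a covariate and 3 of 9 with the rule on the summed pair. Over all genes 52.2% were positive with the plate column set, 37.3% with genes detected in edgeR and 57.7% with the summed rule. Without the Mpo-rich pairs 7 of 8 were positive, beside 49.9% over all genes. Cytochrome b, mt-Cytb, went the other way, with medians of 7929 CPM in responding pairs and 9962 CPM in other pairs (log2 fold change -0.51 ± 0.23, edgeR adjusted p = 1), while mt-Nd1 had 5886 and 3061 CPM.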
